A study of Arabidopsis thaliana with 4 samples.

Results

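The genes described here are nuclear genes of photosynthesis and chlorophyll synthesis in Arabidopsis thaliana, compared between wild-type plants and the lwd1 lwd2 double mutant. They were chosen by gene symbol alone: a probe set was a member if it was assigned to 1 nuclear gene whose symbol began with LHCA, LHCB, CAB, PSA, PSB, PET, ATPC, ATPD, PNSL, PNSB, NDH and a letter, PORA, PORB, PORC, CHL, HEM, GUN, CRD1, RBCS or RCA. This gave 25 probe sets of 25 genes among the 22810 probe sets on the array. They comprised 3 antenna genes, 2 of photosystem I, 3 of photosystem II, 2 of the chloroplast ATP synthase, 3 of the chloroplast NDH complex, 10 of tetrapyrrole and chlorophyll synthesis and the Rubisco activase gene RCA. The remaining member was CHL (AT3G47860), which encodes the chloroplastic lipocalin, a lumenal protein of photoprotection, and carries the CHL prefix without being a chlorophyll synthesis gene. No probe set assigned to 1 nuclear gene had a symbol beginning with LHCA, CAB, PET, ATPD, PNSL, PNSB, GUN, CRD1 or RBCS. Those nuclear genes were not analysed here, while plastid-encoded pet genes are among the plastid genes below. Since 8730 of the 22810 probe sets had no gene name here, the 25 genes are those members of these families that could be named, not the whole families.

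The related proteins LWD1 and LWD2 contain WD repeats and act in the circadian clock, and the study examined how their joint loss alters transcript levels. There were 4 arrays, 2 for each genotype, which the design text calls biological replicates. Every plant was 31 days old, had been kept in days of 12 h light and 12 h dark, and was harvested 5 to 9 h after lights-on, when all above-ground tissue was taken. The mutant was a single double-mutant genotype, and neither its alleles nor the wild-type accession is given in the sources used here. No probe set was named LWD1 or LWD2, so the targeted genes give no check of the genotype labels.

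In photosynthesis, antenna proteins bind chlorophyll and pass light energy to photosystems II and I, whose electron transport drives the ATP synthase and reduces ferredoxin, while the NDH complex returns electrons from ferredoxin to the plastoquinone pool. The reaction-centre cores are largely plastid-encoded, and the nucleus encodes the antenna, many small subunits and the enzymes that make chlorophyll. Chlorophyll is built from glutamate through 5-aminolevulinic acid, uroporphyrinogen, protoporphyrin and protochlorophyllide, and in flowering plants the protochlorophyllide reductases need light. Transcripts of many of these genes follow a daily rhythm set by light and the clock, and all samples came from 1 harvest window, so a shift in timing and a change in level cannot be told apart. In bulk tissue, fewer cells of a type and less RNA per cell cannot be told apart either.

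The values are linear signal intensities that had been scaled to the same trimmed mean (500.05) on every array. They were analysed as log2(signal + 16), and each difference below is mutant minus wild type on that scale, tested with limma over all 13647 tested probe sets. A probe set passed the test, and is said to have risen or fallen, when its Benjamini-Hochberg adjusted p was below 0.05. Fold changes are on the log2(signal + 16) scale. The median signal was 163 and 162 in wild type, against 181 and 176 in the mutant. Across tested probe sets, r was 0.972 between replicates of either genotype and 0.932 to 0.947 between genotypes. Of the 46 fixed tissue markers, none of the 10 for green leaf was matched by its listed symbol. HPR1 among those 10 is the hydroxypyruvate reductase gene described below as HPR. It was lower on both mutant arrays, with a log2 difference of −0.58 ± 0.16 (SE), and did not pass. Of the 36 markers for flower, anther, root, seed, guard cell and phloem, 3 were named. The anther regulator AMS had signals of 46.3 and 1.1 in wild type, against 59.7 and 11.9 in the mutant, and the root-hair gene EXPA7 had 9.9 and 41.5 against 19.5 and 4.1, both too dim to be tested. The guard-cell regulator FMA (FAMA) was tested and had a log2 difference of 0.09 ± 0.22 (SE).

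The lipocalin gene CHL and the protochlorophyllide reductase gene PORB rose in the mutant, and the NDH subunit gene NdhS fell. Of the 25 members, 22 passed the filter on dim probe sets, and these 3 of 22 (13.6%) passed the test. The share over all tested probe sets was 5.57% (760 of 13647, 372 higher and 388 lower; 257 higher and 572 lower after each array was centred on its median). By direction, 2 members rose against a background of 2.73%, and 1 fell against 2.84%. Without CHL, the share of members was 2 of 21 (9.52%). The share of all tested probe sets that passed differed with mean signal. It was 2.97% up to a signal of 300 and 3.52% above 10000. Between 1000 and 3000, where CHL lay, it was 8.64%. Between 3000 and 10000, where PORB and NdhS lay, it was 8.26%. These shares rest on very few genes, and the difference from the background was not tested. Another 2 members, HEMA2 and NdhL, had an unadjusted p below 0.05, which makes 5 of 22 (22.7%), near the 19.9% of all tested probe sets (2716 of 13647). The groups' arrays did not overlap for 13 of the 22 tested members (59.1%), near the 51.5% of all tested probe sets; 6 were higher in the mutant (background 28.9%) and 7 lower (22.6%).

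**Figure D1:**
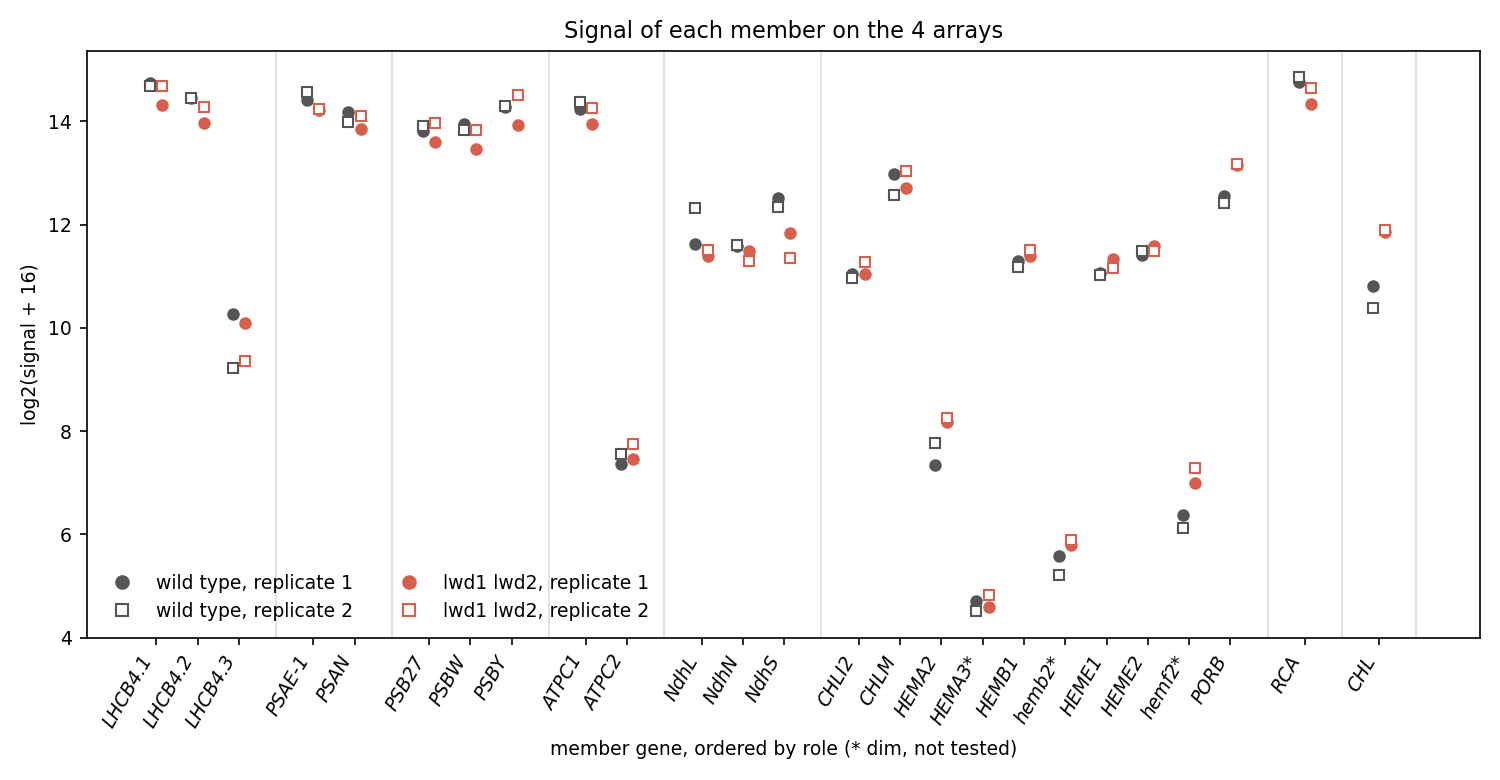
Signal of each of the 25 members on each array, as log2(signal + 16) on the vertical axis, with genes ordered by role on the horizontal axis. Each point is 1 array (grey, wild type; red, lwd1 lwd2; filled circle, replicate 1; open square, replicate 2), and asterisks mark the 3 dim members that were not tested. Both mutant points lie above both wild-type points for PORB and CHL, and below them for NdhS, whereas LHCB4.3 separates by replicate number within each genotype.

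CHL, the chloroplastic lipocalin gene, gave signals of 1781 and 1325 in wild type, against 3704 and 3784 in the mutant. Both mutant arrays stood above both wild-type arrays, and the mutant replicates were close to each other. The mean went from 1553 ± 322 to 3744 ± 56.9 (SD, n = 2), a 2.42-fold rise with a log2 difference of 1.28 ± 0.19 (SE, adjusted p = 0.00335, limma). Lipocalins are small ligand-binding proteins, and the chloroplastic one is known to be required for a sustained form of energy dissipation in the antenna and to protect thylakoid lipids under oxidative stress. CHL passed in all 12 alternatives, with differences from 1.07 to 1.49 and adjusted p from 0.000169 to 0.0285.

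All 7 tested genes of tetrapyrrole and chlorophyll synthesis lay above 0 (median log2 difference 0.19, against 0.05 over all tested probe sets). Among them PORB rose, and the other 6 did not pass (adjusted p from 0.150 to 0.826, limma). After each array was centred on its median, which moved every difference down by the same amount and the median of all tested probe sets from 0.05 to −0.08, 5 of the 7 stayed positive, and the signs of CHLM and HEME2 turned. Without wild-type replicate 2 or mutant replicate 2, 6 of the 7 were positive. Before any centring, the array medians over these 7 genes were 11.29 and 11.18 in wild type, against 11.39 and 11.49 in the mutant on the log2 scale. They did not overlap, but neither did the medians over all probe sets other than controls. Those were 7.48 and 7.47 in wild type, against 7.62 and 7.59 in the mutant, so the separation of the 7 genes depends on the scaling used.

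PORB (AT4G27440) encodes a protochlorophyllide oxidoreductase, the light-dependent enzyme that makes chlorophyllide in green tissue. Its signals were 5987 and 5428 in wild type, against 9152 and 9182 in the mutant. The mutant arrays were nearly equal and both exceeded both wild-type arrays. The mean went from 5708 ± 395 to 9167 ± 21.5 (SD, n = 2), a 1.61-fold rise with a log2 difference of 0.68 ± 0.16 (SE, adjusted p = 0.0349, limma). The call ended without the filter on dim probe sets (adjusted p = 0.133), after centring on the median (0.0835), and without wild-type replicate 2 (0.157), mutant replicate 1 (0.0644) or mutant replicate 2 (0.0603).

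At the start of the pathway, HEMA2 (AT1G09940), 1 of the glutamyl-tRNA reductase genes that commit glutamate to tetrapyrroles, had signals of 146 and 203 in wild type, against 272 and 291 in the mutant. The genotypes did not overlap. Its log2 difference was 0.66 ± 0.24 (SE), close to that of PORB but with a wider error, and it did not pass (adjusted p = 0.150, limma). The difference was 0.44 without wild-type replicate 1 and 0.88 without wild-type replicate 2. HEMA3 (AT2G31250), another reductase gene, was dim, at 10.1 and 6.8 in wild type, against 8.0 and 12.4 in the mutant, and was not tested.

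The middle steps showed small positive differences. HEMB1 (AT1G69740), which encodes 5-aminolevulinic acid dehydratase, had signals of 2483 and 2305 in wild type, against 2660 and 2887 in the mutant, a log2 difference of 0.21 with a 95% confidence interval of −0.16 to 0.59. HEME1 (AT3G14930), a uroporphyrinogen decarboxylase gene, had 2137 and 2060 against 2551 and 2263, with an interval of −0.19 to 0.57. For both genes the mutant arrays lay above the wild-type arrays by less than the interval can separate from 0. HEME2 (AT2G40490), the second decarboxylase gene, had 2693 and 2861 in wild type, against 3059 and 2865 in the mutant (log2 difference 0.09). The second dehydratase gene hemb2 (AT1G44318) stood at 31.9 and 20.9 in wild type, against 39.6 and 43.2 in the mutant. The coproporphyrinogen oxidase gene hemf2 (AT4G03205) stood at 67.0 and 53.8 in wild type, against 110.7 and 140.5 in the mutant. The mutant arrays were higher for both of these dim genes, but neither gene was tested (on the scale of mean log2 values the filter stood at a signal of 91.5).

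On the magnesium branch that leads to chlorophyll, CHLI2 (AT5G45930), a magnesium chelatase subunit, had signals of 2098 and 1987 in wild type, against 2094 and 2447 in the mutant. CHLM (AT4G25080), the methyltransferase that acts on magnesium protoporphyrin, had 8011 and 6083 in wild type, against 6680 and 8341 in the mutant. Both genes overlapped between genotypes, with log2 differences of 0.15 and 0.10. For CHLM the gap between the wild-type replicates was 0.40 on the log2 scale, larger than the difference between genotypes, whose 95% confidence interval ran from −0.33 to 0.52.

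**Figure D2:**
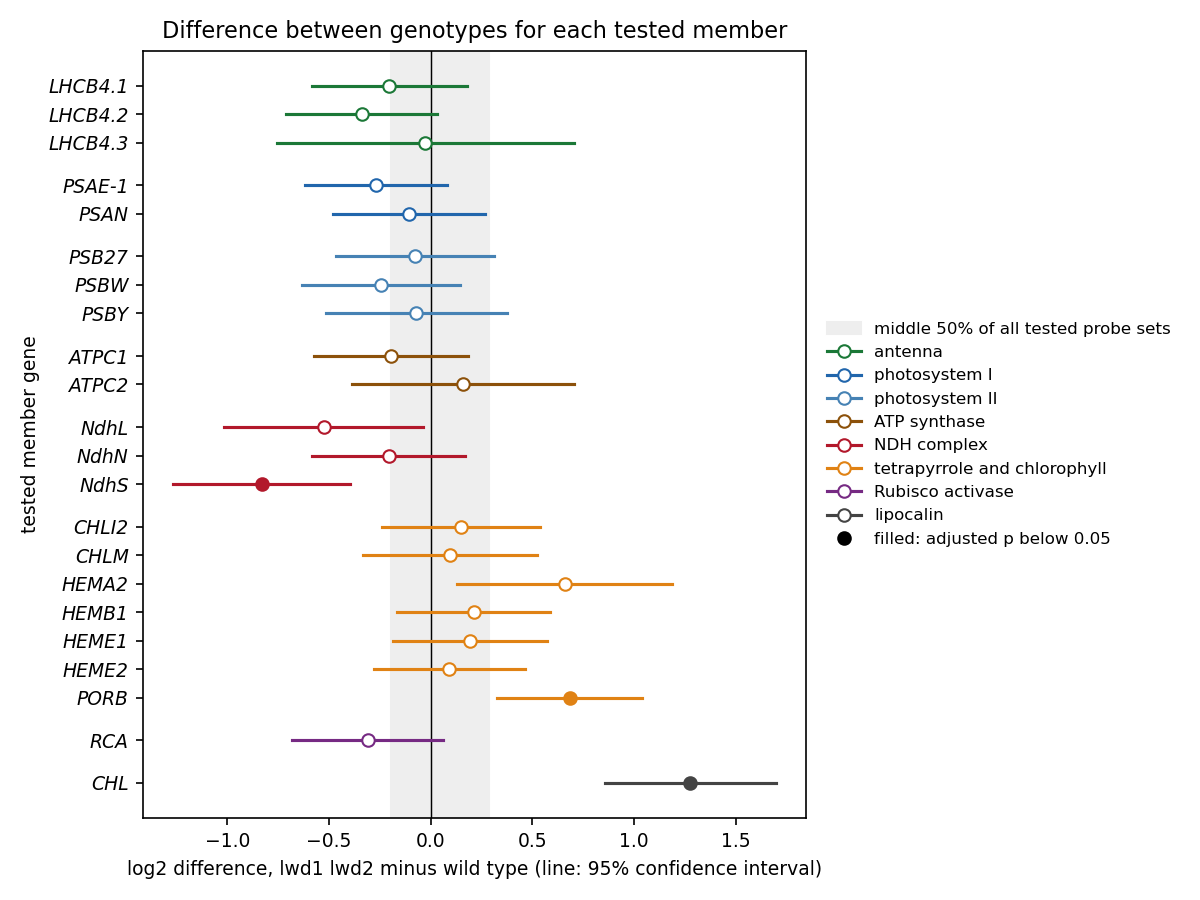
Log2 difference (lwd1 lwd2 minus wild type) of the 22 tested members on the horizontal axis, by gene and coloured by role, with lines for the 95% confidence interval filled points for an adjusted p below 0.05 and a grey band for the middle 50% of all tested probe sets. The tetrapyrrole genes all lie right of 0 and 13 of the 14 genes of the light reactions and Rubisco activase lie left of it, and the intervals of 19 members that did not pass mostly include 0 (HEMA2 and NdhL are the exceptions).

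The 14 genes of the antenna, photosystems, ATP synthase, NDH complex and Rubisco activation had a median difference of −0.20 on the log2 scale, against 0.05 over all tested probe sets. The difference was negative for 13 of them, NdhS fell, and the others did not pass. After quantile normalization the median was −0.08 and 9 of the 14 were negative, and after centring on the array medians it was −0.33 with 13 negative. It was −0.11 with 10 negative without mutant replicate 1, and −0.36 with 12 negative without mutant replicate 2. The arrays did not overlap and the mutant was lower for 7 of the 14, against 22.6% of all tested probe sets. That share was higher among bright probe sets. Above a mean signal of 10000 it was 4 of 9 members (44.4%), against 38.4% of the 190 other tested probe sets. The array medians over the 14 genes were 14.07 and 13.95 in wild type, against 13.73 and 14.04 in the mutant, which overlap. Mutant replicate 1 was below mutant replicate 2 for 11 of the 14.

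A negative difference was also the rule among bright probe sets in general. All 9 members with a mean signal above 10000 had a negative difference, with a median of −0.20. Of the 190 other tested probe sets above that signal, 126 were negative, with a median of −0.12, and 157 were lower in mutant replicate 1 than in mutant replicate 2, as were all 9 members. The median fell stepwise from 0.12 for probe sets of signal up to 300 to −0.12 for those above 10000. After quantile normalization it was between −0.01 and 0.00 in each of the 5 signal classes. That step gives every array the same distribution of values, so class medians near 0 are largely built in and show nothing about the source of the decline. The part of this signal dependence in the members' differences was not tested.

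**Figure D3:**
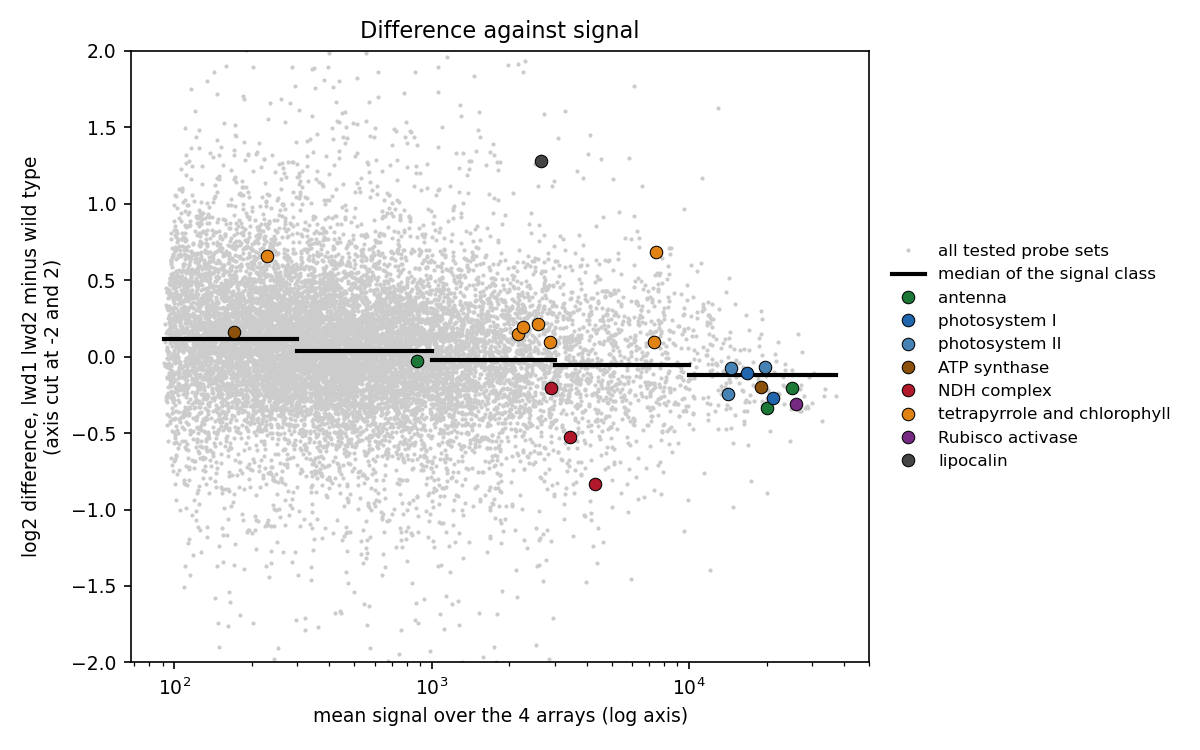
Log2 difference (lwd1 lwd2 minus wild type) against mean signal on a log axis, with all tested probe sets in grey, members coloured by role and black lines for the median of each of 5 signal classes; probe sets beyond the ends of the vertical axis are not drawn. The class median declines from 0.12 to −0.12 with signal; the 9 brightest members lie around or below the line, while NdhS, NdhL, HEMA2, PORB and CHL stand away from it.

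The antenna members encode CP29, a minor antenna protein that links the major light-harvesting complex to photosystem II. LHCB4.1 (AT5G01530) had signals of 27233 and 26386 in wild type, against 20498 and 26465 in the mutant, so mutant replicate 2 lay within the wild-type range. LHCB4.2 (AT3G08940) had 22458 and 22384 in wild type, against 15906 and 19754 in the mutant, with both mutant arrays lower. Its log2 difference was −0.34 ± 0.17 (SE, adjusted p = 0.295, limma). The third gene, LHCB4.3 (AT2G40100), whose product lacks part of the CP29 sequence, had signals of 1220 and 582 in wild type, against 1071 and 640 in the mutant. It was higher in replicate 1 than in replicate 2 of both genotypes, by 1.05 in wild type and 0.73 in the mutant on the log2 scale, and the genotypes differed by −0.03 ± 0.33. Without wild-type replicate 1 that difference was 0.50, and without wild-type replicate 2 it was −0.55.

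Of the photosystem I genes, PSAE-1 (AT4G28750), a stromal subunit at the ferredoxin docking site, had signals of 21949 and 24281 in wild type, against 18981 and 19359 in the mutant. The genotypes did not overlap, and the log2 difference was −0.27 ± 0.16 (SE, adjusted p = 0.381, limma). PSAN (AT5G64040), a lumenal subunit at the plastocyanin docking site, had 18493 and 16296 against 14776 and 17618, which overlap.

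The 3 photosystem II genes had a median difference of −0.08 on the log2 scale, which turned to 0.10 without mutant replicate 1 and to 0.03 after quantile normalization, and was −0.37 without mutant replicate 2. PSBW (AT2G30570), which encodes a small subunit that stabilises the complex, had signals of 15875 and 14608 in wild type, against 11348 and 14572 in the mutant. Mutant replicate 2 was just under the lower wild-type array, and the log2 difference was −0.24 ± 0.18 (SE). PSBY (AT1G67740), another small subunit gene, ran from 15485 to 23415 within the mutant and from 19801 to 20170 in wild type. The assembly and repair factor gene PSB27 (AT1G03600) ran from 12478 to 16008 in the mutant and from 14432 to 15410 in wild type. For both genes the mutant replicates enclosed the wild-type values. No photosystem member passed, and the 5 photosystem genes had adjusted p from 0.381 to 0.885 (limma).

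The gamma subunit of the ATP synthase is the rotating shaft that couples proton flow to ATP synthesis. ATPC1 (AT4G04640), its main gene, had signals of 19302 and 21266 in wild type, against 15857 and 19699 in the mutant, with a log2 difference of −0.20 ± 0.17 (SE). The second gene, ATPC2 (AT1G15700), had 148 and 171 against 161 and 200, with a difference of 0.16 ± 0.25. Both overlapped between genotypes and neither passed. RCA (AT2G39730), which encodes the enzyme that frees Rubisco of inhibitory sugar phosphates, had signals of 27927 and 29534 in wild type, against 20801 and 25786 in the mutant. Both mutant arrays were lower, and the difference of −0.31 ± 0.17 had a 95% confidence interval of −0.68 to 0.06.

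The 3 NDH genes were lower on both mutant arrays than on both wild-type arrays, as were 22.6% of all tested probe sets, and 1 of them fell, as did 2.84% of all; 3 genes are too few to read these shares as a result about the complex. Their median difference was −0.53 on the log2 scale, and −0.20 without wild-type replicate 2. Their differences were also negative after quantile normalization and after centring on the median. NdhS (AT4G23890) encodes a peripheral subunit that forms the ferredoxin-binding site of the complex. Its signals were 5865 and 5143 in wild type, against 3627 and 2613 in the mutant, so that the highest mutant value was well under the lowest wild-type value. The mean went from 5504 ± 511 to 3120 ± 717 (SD, n = 2), a 1.78-fold fall with a log2 difference of −0.83 ± 0.20 (SE, adjusted p = 0.0345, limma). The call ended without the filter (adjusted p = 0.131), after quantile normalization (0.0510), without wild-type replicate 1 (0.0657) or mutant replicate 2 (0.143, log2 difference −0.60).

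NdhL (AT1G70760), a membrane subunit of the NDH complex, had signals of 3157 and 5073 in wild type, against 2669 and 2884 in the mutant. Wild-type replicate 2 stood far above the other 3 arrays. The log2 difference of −0.53 ± 0.22 (SE) did not pass (adjusted p = 0.216, limma); it was −0.87 without wild-type replicate 1, where it passed (adjusted p = 0.0180), and −0.19 without wild-type replicate 2. NdhN (AT5G58260), a stromal subunit, had 3078 and 3116 in wild type, against 2867 and 2510 in the mutant. Its replicates agreed well in wild type, and its difference of −0.21 ± 0.17 did not pass.

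**Figure D4:**
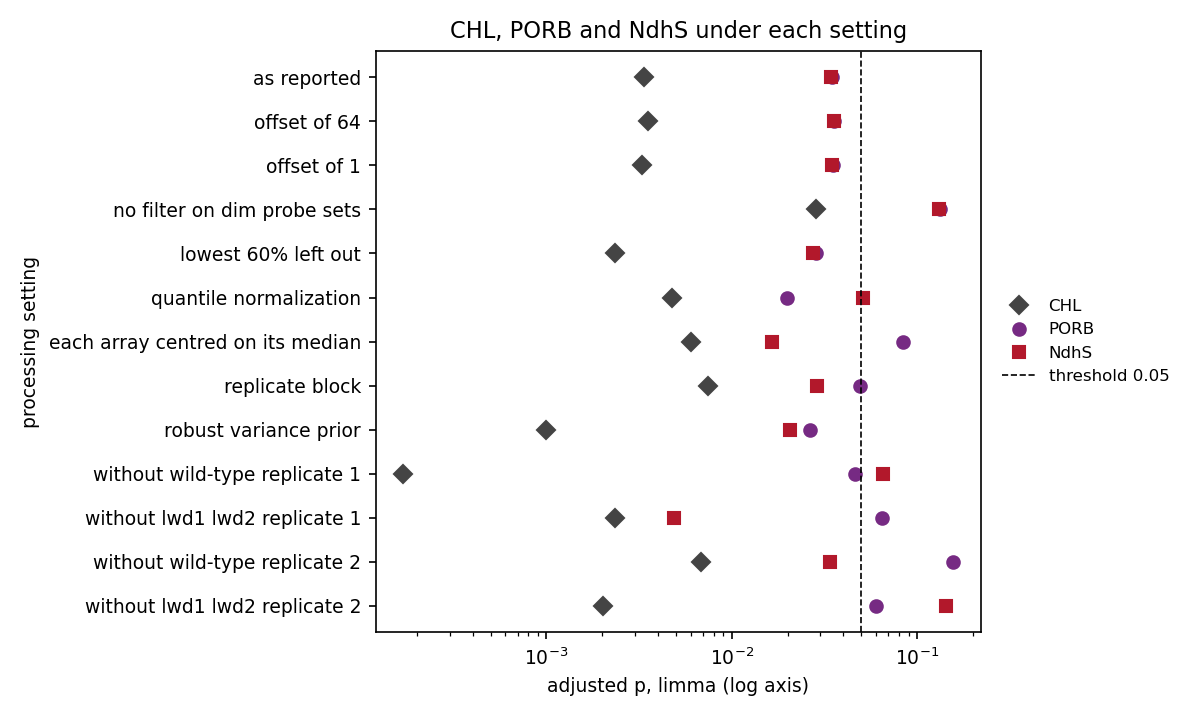
Adjusted p (log axis) of CHL, PORB and NdhS as reported and under each of 12 alternative settings, with the threshold of 0.05 as a dashed line. CHL lies left of the line throughout, whereas PORB crosses it in 5 settings and NdhS in 4.

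The plastid genome supplies the partners of these nuclear subunits in the same complexes. Of 69 plastid-encoded genes on the array, 67 were tested and none passed (limma), 7 had an unadjusted p below 0.05 (10.4%, against 19.9% of all tested probe sets), and the median difference was −0.14. That median was −0.04 without wild-type replicate 2, and also when mutant replicate 2 was left out. The 9 tested plastid NDH genes had a median of −0.13 and a range of −0.32 to 0.37, and the genotypes overlapped for each of them. The genotypes did not overlap for 21 of the 67 tested plastid genes (31.3%) and for 51.5% of all tested probe sets. The 3 nuclear NDH members ran from −0.83 to −0.21. The difference between these 2 sets was not tested. In photosystem II the plastid genes were the lower set, with a median of −0.35, against −0.08 for the 3 nuclear members. Of these 15 plastid genes, 14 were negative and 1 positive. The mutant was lower without overlap for 7 of the 15 (22.6% of all tested probe sets). An unadjusted p below 0.05 (limma) was found for 5 (33.3%, against 19.9%). This contrast was not tested either. Signals of the plastid genes psbC and psbD, which encode a core antenna and a reaction-centre protein, were 12716 and 5497 in mutant replicate 1 and 2290 and 1114 in mutant replicate 2, so single plastid genes varied more between mutant replicates than any nuclear member.

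**Figure D5:**
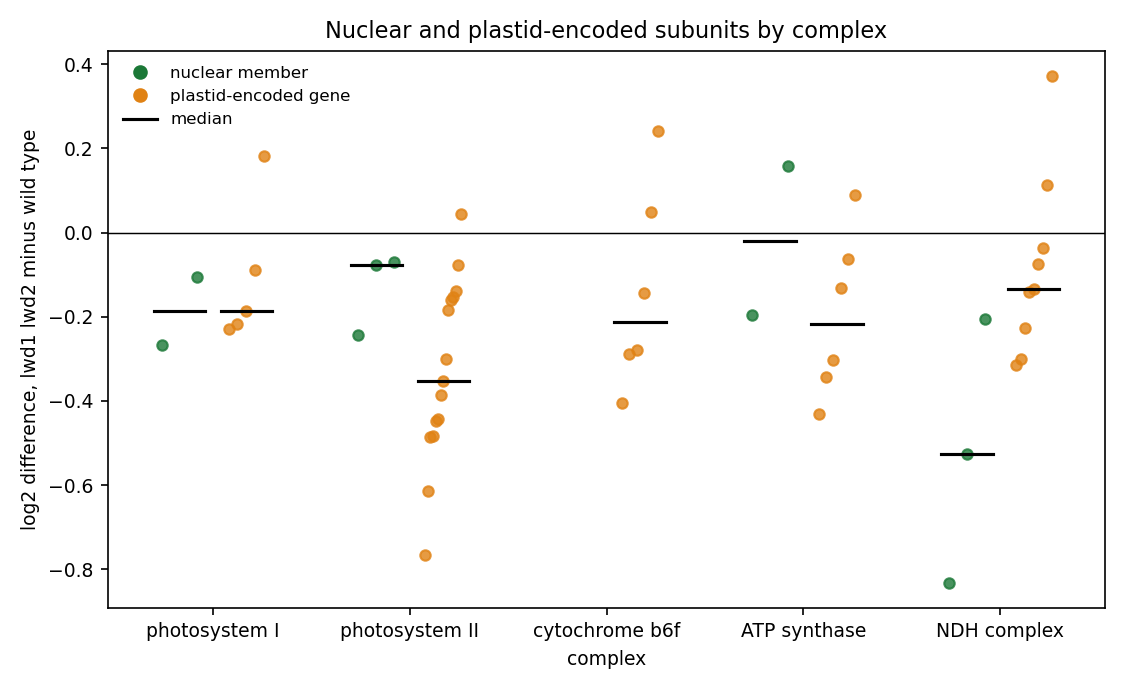
Log2 difference (lwd1 lwd2 minus wild type) of tested nuclear members (green) and plastid-encoded genes (orange) by complex, with medians as black lines; each point is 1 gene. Nuclear NDH members reach −0.83 and plastid NDH genes run from −0.32 to 0.37, while plastid photosystem II genes run from −0.77 to 0.05.

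The fixed lists of neighbouring pathways held 202 entries, of which 16 genes that are not members were named on the array, and all 16 were tested. None passed (limma), 8 (50%) had an unadjusted p below 0.05, against 19.9% of all tested probe sets, and 12 were negative with a median of −0.29; the lists were chosen with earlier results known. In the Calvin cycle, the phosphoribulokinase gene PRK had signals of 17520 and 20077 in wild type, against 13166 and 14491 in the mutant. The sedoheptulose-bisphosphatase gene SBPASE had 13933 and 14362 against 10523 and 11586. Both were lower on both mutant arrays, with log2 differences of −0.44 ± 0.16 and −0.36 ± 0.16 (SE), and neither passed (adjusted p = 0.158 and 0.243, limma).

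In photorespiration, the peroxisomal hydroxypyruvate reductase gene HPR had signals of 19825 and 20608 in wild type, against 13456 and 13633 in the mutant. The replicates were close in both genotypes, and the log2 difference of −0.58 ± 0.16 (SE) did not pass (adjusted p = 0.0583, limma). HPR passed in 3 of the 12 alternatives. These were centring on the median (adjusted p = 0.0320, limma), leaving out the lowest 60% (0.0477) and a robust variance prior (0.0480). In the others it did not pass, and its adjusted p was 0.257 (limma) without the filter on dim probe sets. Among regulators, HYH, a light-signalling transcription factor related to HY5, had signals of 442 and 525 in wild type, against 301 and 119 in the mutant. Its log2 difference was −1.27 ± 0.34 (SE, adjusted p = 0.0581, limma), and the mutant arrays lay far apart; it was −1.89 without mutant replicate 1 (adjusted p = 9.45e-05) and −0.65 without mutant replicate 2 (0.206). The difference was −1.39 without wild-type replicate 1. HYH passed in 4 of the 12 alternatives, among them centring on the median (adjusted p = 0.0350, limma) and leaving out the lowest 60% (0.0455). In the others it did not pass. Its adjusted p was 0.126 (limma) with a robust variance prior and 0.214 without the filter on dim probe sets. HYH was the only regulator named, of 35 entries.

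Among genes of electron flow and assembly, TROL, which anchors ferredoxin-NADP reductase to the thylakoid, had signals of 5120 and 5548 in wild type, against 3446 and 3884 in the mutant (log2 difference −0.54 ± 0.17 (SE), adjusted p = 0.0953, limma; 0.0495 after centring on the median). The cyclic electron flow gene PGRL1B had a difference of −0.41 ± 0.18. The assembly genes HCF101, LPA1, LPA2 and PAM68 lay between −0.16 and 0.16. The plastid-encoded photosystem I assembly gene ycf3 had signals of 432 and 475 in wild type, against 695 and 727 in the mutant, the positive end of this list (0.63 ± 0.19, adjusted p = 0.0841, limma). Other genes of tetrapyrrole synthesis did not share one direction: GSA1, which makes 5-aminolevulinic acid, stood at 0.12 and SIRB of the sirohaem branch at −0.23. NOL, a chlorophyll b reductase gene of chlorophyll breakdown, had signals of 815 and 798 in wild type, against 643 and 430.2 in the mutant. Its log2 difference of −0.60 ± 0.22 (SE) was −0.32 without mutant replicate 2. The carotenoid gene LYC had 1930 and 2086 in wild type, against 1139 and 1721 in the mutant. Its difference of −0.51 ± 0.21 went to −0.22 when mutant replicate 1 was left out, and to −0.81 when mutant replicate 2 was. Z-ISO, of the same pathway, had −0.14 ± 0.18.

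A further 13 nuclear genes, taken from the gene table by words such as thylakoid or chlororespiratory reduction, were added after the members' values had been seen. None passed (limma), 1 (7.69%) had an unadjusted p below 0.05, and the median was −0.22. They include NDH accessory genes. CRR41 and CRR42, which act in NDH assembly, had log2 differences of −0.25 ± 0.20 and −0.31 ± 0.18 (SE), and PIFI, another gene linked to NDH function, −0.23 ± 0.16. Of the genes that edit plastid ndh transcripts, CRR28 had signals of 235 and 204 in wild type, against 309 and 280 in the mutant (log2 difference 0.40 ± 0.22, SE). CRR22 had a difference of 0.52 ± 0.26, which was 0.27 without wild-type replicate 1 and 0.76 without wild-type replicate 2. CRR21 had 0.29 ± 0.25, which turned to −0.03 without wild-type replicate 1 and was 0.61 without wild-type replicate 2.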

How the data were processed

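RNA from above-ground tissue was hybridised to Affymetrix GeneChip arrays after 10 µg of total RNA had been labelled with biotin, per the labels' protocols. The authors deposited 1 linear signal intensity per probe set and array; the sources used here name no software, and the equal 2% trimmed means show that arrays had been scaled, which hides any change in total mRNA. No detection calls were used. Intensities were turned into log2(signal + 16). Control probe sets (64) were left out, as were the dimmest 40% by mean over the 4 arrays, leaving 13647. limma 3.58.1 (R 4.3.3; lmFit, eBayes with intensity trend, two-sided, Benjamini-Hochberg over all tested probe sets) compared genotypes with 2 residual degrees of freedom; standard errors are moderated. The number of arrays limits precision. The procedure was tested on simulated data, whose variance model was revised after a first version recovered few of the changed probe sets. The simulated variances came from limma's own fitted prior, with independent noise on each array. The simulation therefore cannot show whether that model holds for these arrays.

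Of 22810 probe sets, 13513 have 1 gene in the platform table (13436 matched to the TAIR10.1 gene table), 503 have several and 8730 are unnamed here. Close paralogs can share a probe set. The members and lists were chosen with earlier results of these data known. Every member could be named; the rule gave array values to members past the threshold, those differing by at least 0.5 without overlap and the 3 brightest per role. Array values of the other 6 tetrapyrrole members were added after they had been seen. The rule named from each list the gene with the largest difference; the other list, added and plastid genes (psbC and psbD among them) were named after their values were seen. List entries matching another gene (THO1, a cinnamoyl-CoA reductase, a cytosolic isomerase) were dropped. The alternatives were other offsets, filters and scalings, a robust prior, a replicate block and leaving out each array. Figures were drawn with matplotlib 3.10.9.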

Additional observations from a re-analysis of the deposited data

How the results depend on the processing

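Of 262 values of the 22 tested members over the 12 alternatives, 252 kept both side of the threshold and, where called, direction; 9 lost the threshold (PORB and NdhS), 1 gained it (NdhL) and none that was called turned its sign. Of the 22, 15 had the same sign in every alternative that tested them. Without the filter on dim probe sets, 258 probe sets passed (760 with it), and 1 member; the cause was not tested. Centring each array on its median moved the median member difference from −0.07 to −0.20 (0.03 after quantile normalization and without mutant replicate 1) and the tetrapyrrole median from 0.19 to 0.067. Of the pathway and plastid genes, 2 passed with the lowest 60% left out, 3 after centring and 1 with the robust prior, against 0. With 1 array left out, 1 to 3 members passed (1 without mutant replicate 2), the tetrapyrrole median was 0.15 to 0.28, and 0 to 5 pathway and plastid genes passed; the remaining array of a genotype is then assumed to vary like the other genotype. Without CHL, 2 members passed and the median was −0.08. Each member has 1 probe set, so taking 1 per gene changed nothing. The replicate numbers are not known to pair the samples: deviations of same-numbered arrays correlated at 0.0935, and with a replicate block 676 probe sets passed (760 without it) and the same number of members, 3 (PORB at adjusted p = 0.0491). A dim signal limits HEMA3, hemb2 and hemf2, which have values but no test in the main analysis. Without the filter on dim probe sets all 25 members were tested. The tetrapyrrole medians without wild-type replicate 1 (0.28) or wild-type replicate 2 (0.16) were over 8 genes rather than 7.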
